A study of Homo sapiens with 22 samples.

Results

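The loci of 3 genes that repress the circadian clock, BHLHE40 (DEC1), BHLHE41 (DEC2) and CIART (CHRONO, formerly C1orf51), were examined for binding of the clock activators BMAL1 (ARNTL) and CLOCK. Peaks were taken from chromatin immunoprecipitation sequencing (ChIP-seq) when their midpoint lay in a gene body or within 10 kb of it, in coordinates of human genome build hg19. By this rule 3 of 9584 BMAL1 peaks, 2 of 269 CLOCK peaks and 2 of 140 regions that the authors deposited as common to both factors belonged to these loci. The study holds 22 libraries of the MLL-AF9 leukaemia cell lines NOMO-1 and THP-1. The 2 libraries used here, 1 for BMAL1 and 1 for CLOCK, came from THP-1, an established human monocytic leukaemia line. Both groups were untreated cells fixed with 2 mM ethylene glycol bis(succinimidyl succinate) (EGS), a protein crosslinker, for 30 minutes and with 1% formaldehyde for 30 minutes, and they differ in antibody alone per the labels. The other 20 libraries, the IgG and input controls among them, were not analysed here. With 1 library per factor there is no replicate error and no test between conditions, and the depth of the libraries is unknown from these files.

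BMAL1 and CLOCK form a heterodimer of basic helix-loop-helix proteins that binds E-box sequences and activates clock genes. BHLHE40 and BHLHE41 encode related basic helix-loop-helix repressors that also bind E-boxes, and so compete with the activators for DNA. CIART encodes a repressor that acts by binding BMAL1. All 3 genes are known as targets of the heterodimer in other tissues, which closes a negative feedback loop.

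The promoters of the 3 genes are shown first, because the canonical E-box, CACGTG, is the sequence through which the heterodimer is known to act. They are RefSeq sequences of build GRCh38.p14, the 250 bases before each gene start, written 5′ to 3′ along transcription with CACGTG in capitals. They lie at chr3:4979187-4979436 on the plus strand for BHLHE40, chr12:26125038-26125287 on the minus strand for BHLHE41 and chr1:150282304-150282553 on the plus strand for CIART. These coordinates are not those of the hg19 peaks, and the builds were not converted into each other.
BHLHE40: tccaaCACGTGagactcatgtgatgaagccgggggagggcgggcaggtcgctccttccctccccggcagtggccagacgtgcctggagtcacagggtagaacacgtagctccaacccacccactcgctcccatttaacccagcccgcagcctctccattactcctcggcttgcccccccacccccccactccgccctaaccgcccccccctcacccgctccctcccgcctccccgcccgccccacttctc
BHLHE41: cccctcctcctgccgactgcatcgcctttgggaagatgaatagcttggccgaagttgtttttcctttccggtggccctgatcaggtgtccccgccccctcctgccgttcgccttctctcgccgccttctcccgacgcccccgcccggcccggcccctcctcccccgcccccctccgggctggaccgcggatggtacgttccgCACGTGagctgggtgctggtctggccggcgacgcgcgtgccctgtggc
CIART: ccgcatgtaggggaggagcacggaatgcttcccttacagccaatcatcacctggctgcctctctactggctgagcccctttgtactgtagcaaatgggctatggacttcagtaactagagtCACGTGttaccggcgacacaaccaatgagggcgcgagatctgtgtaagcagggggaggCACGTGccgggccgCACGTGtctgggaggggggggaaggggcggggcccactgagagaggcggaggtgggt

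Each of the 3 promoters held at least 1 canonical E-box, and CIART held 3. In BHLHE40 the match ran from base -245 to -240 relative to the start, at the far edge of the sequence shown. In BHLHE41 it ran from -48 to -43. In CIART the matches ran from -129 to -124, from -71 to -66 and from -57 to -52, so that only 8 bases separate the last 2. Counting also the first 50 bases of the transcript, which are not printed and added no match, 7.23% of 34943 RefSeq promoters of 300 bases held CACGTG at least once (2526 promoters). In the same promoters, 0.661% held it at least 2 times and 0.0944% at least 3 times (33 promoters). CACGTG reads the same on both strands, so each site was counted once. Adding the related sequence CACGTT, searched on both strands (no 6 bases can match both), added no match in the 3 promoters. The guanine and cytosine content of the sequences shown was 68.4% for BHLHE40, 70.4% for BHLHE41 and 61.2% for CIART. A match describes the letters only.

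Promoters of 15 other clock genes were searched in the same way. CACGTG was found in 3 of these 15, where genes with alternative starts were counted by their best promoter. PER1, a core repressor, held 1 match, as did TEF, an output transcription factor. NR1D2, which encodes the repressor REV-ERBβ, held 2. No promoter in this list held as many as CIART. With CACGTT also counted, PER2, CRY1, CRY2, NR1D1 and CLOCK, which had no CACGTG, each held 1 match. Over all 34943 promoters, 12.2% held at least 1 of the 2 sequences.

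**Figure D1:**
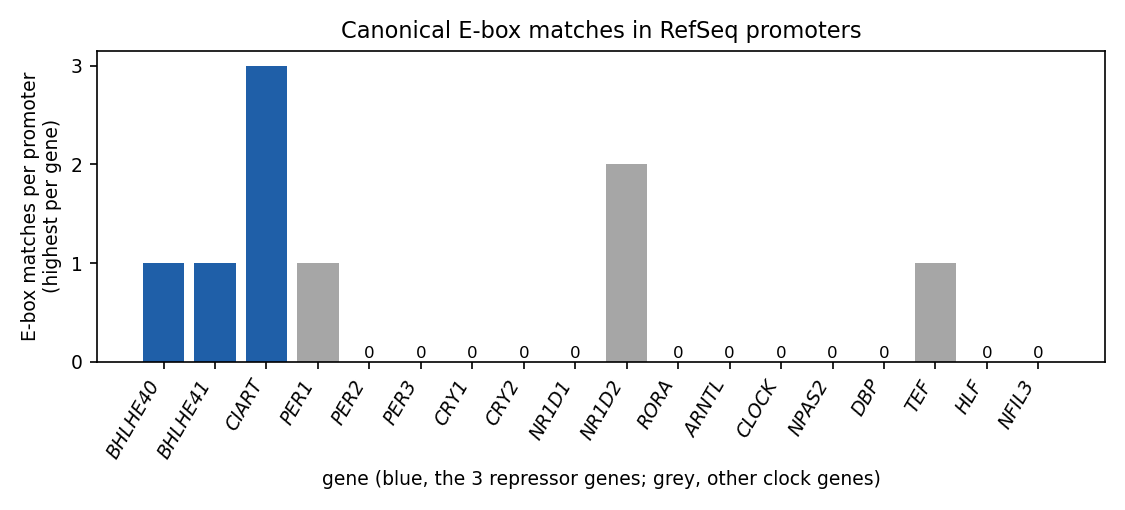
Number of CACGTG matches in the RefSeq promoter of each gene (300 bases, GRCh38.p14), as bars, with the highest count where a gene has several starts. The 3 repressor genes are blue and 15 other clock genes are grey. CIART reaches 3, BHLHE40 and BHLHE41 reach 1, and 12 of the other genes have 0.

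The peak lists placed the activators at both DEC genes and not at CIART. In the map of the loci, every listed peak in the windows lay inside a gene body or past its 3′ end. These parts make up most of each window and the sites were few, so no preference for position can be read from this. The windows were 25769 bp long for BHLHE40, 25045 bp for BHLHE41 and 24553 bp for CIART. For comparison, the genome was cut into fixed tiles of 25 kb, of which 6.77% held a BMAL1 peak, 0.885% held 2 or more and 0.215% held a CLOCK peak. Only 0.112% of tiles held a CLOCK peak that overlapped a BMAL1 peak. These shares include stretches without genes, so they are no measure of what gene loci in general would show. The loci were also chosen with earlier results of these data known, so the shares are no test of the DEC windows. Both DEC windows held an overlapping pair of peaks.

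**Figure D2:**
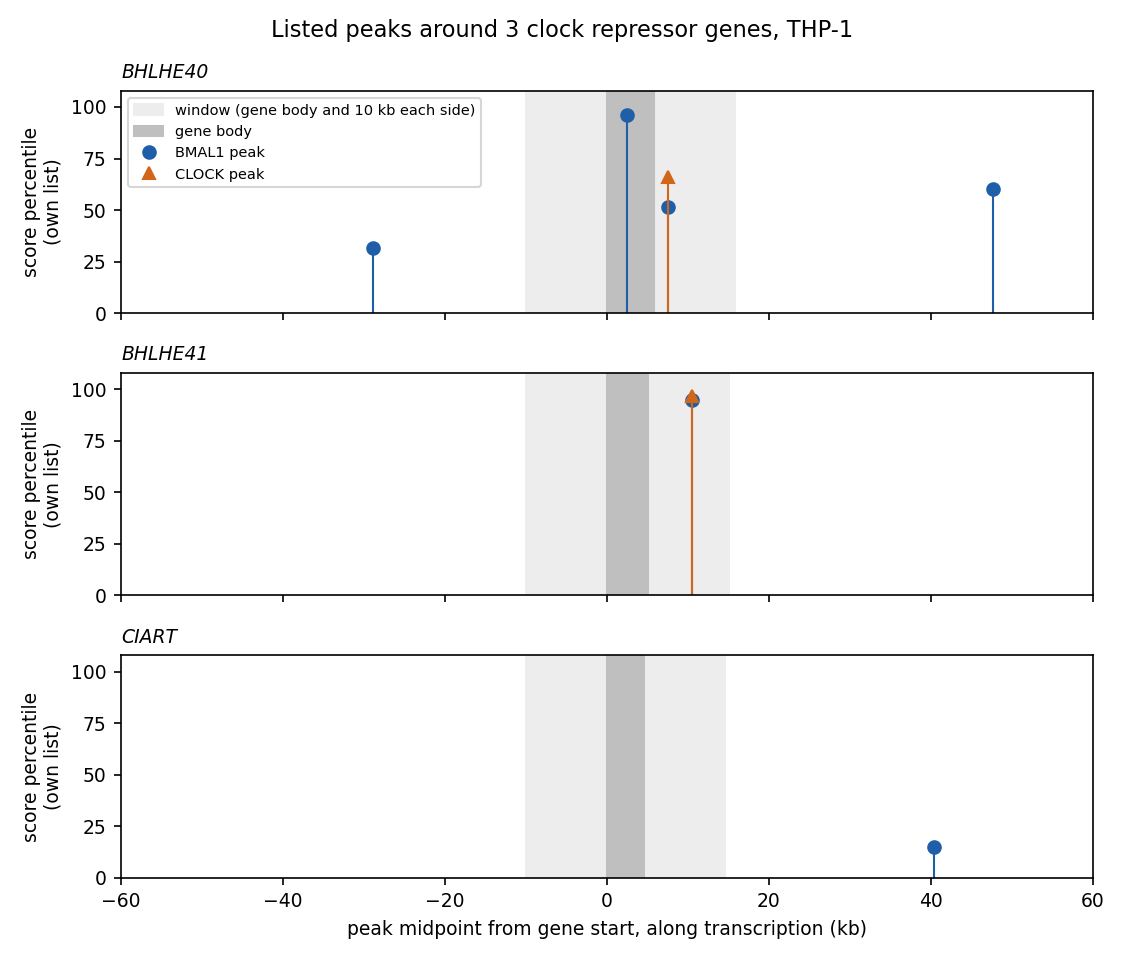
Listed BMAL1 (circles) and CLOCK (triangles) peaks within 60 kb of the start of each gene, at the distance of their midpoint from the gene start along transcription (kb). Height is the percent of the same factor's list that scored at or below the peak; dark grey marks the gene body and light grey the window. BHLHE40 has 2 BMAL1 peaks and 1 CLOCK peak in its window, BHLHE41 has 1 of each, and CIART has none.

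At BHLHE40 (chr3:5021097-5026865 in hg19, plus strand), BMAL1 was listed at 2 sites and CLOCK at 1. The stronger BMAL1 peak, chr3:5023434-5023830, lay inside the gene, with its midpoint 2535 bp after the start. Its score was 40.5, where BMAL1 scores run from 10 to 320.5 with a median of 14.5. It ranked 375th of 9584 BMAL1 peaks, and 96.1% of the list scored at or below it. On chromosome 3 it ranked 13th of 608. The score is the authors' own value with no stated unit, so it places a peak within its list and does not compare the factors. Whether this site is exonic or intronic was not determined, since no hg19 annotation was used here.

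This gene body peak had no listed CLOCK partner. The nearest CLOCK midpoint was 5063 bp away, at the second site of the locus. Lack of a partner was the usual case. Over the whole list most BMAL1 peaks must lack one, as only 269 CLOCK peaks were listed against 9584 for BMAL1. This limit does not fix the share among the strongest BMAL1 peaks, and why this peak had no partner was not tested. Of the 382 BMAL1 peaks scoring 40.5 or more, 19 overlapped a CLOCK peak (4.97%), against 1.46% of all 9584, which include them. The exact Clopper-Pearson 95% interval, 3.02 to 7.66%, covers counting error only. It takes peaks of 1 library as independent and is no test against 1.46%. CLOCK peaks on chromosome 3 are also listed with gaps. Peaks are numbered by falling score within a chromosome, and of the 41 CLOCK numbers on chromosome 3 only 16 are listed. The first listed is number 7, with a score of 30, and 7 numbers ahead of the BHLHE40 peak are absent, at unknown positions. Whether the absent numbers were peaks is not stated.

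The second BHLHE40 site lay past the 3′ end of the gene and carried both factors. The BMAL1 peak chr3:5028487-5028883 had its midpoint 1820 bp beyond the gene end and 5053 bp from that of the gene body peak. It scored 14.5, the median of the BMAL1 list, and ranked 4662nd together with other peaks of that score. The CLOCK peak chr3:5028429-5028961 scored 29, where CLOCK scores run from 18 to 169 with a median of 24. It ranked 93rd of 269 CLOCK peaks, with 65.8% of the list at or below it, and 2nd of the 16 listed on chromosome 3. The CLOCK peak thus sat on the weaker of the 2 BMAL1 peaks by BMAL1 score. Of all BMAL1 peaks, 10.7% (1029) had another BMAL1 midpoint within 5053 bp, and 20.4% (1953) had one within 10 kb. Outside the BHLHE40 window the next BMAL1 peaks were chr3:4991955-4992351 with a score of 12, 28944 bp before the start, and chr3:5068558-5068954 with 16, 41891 bp past the end. The next CLOCK peak, chr3:9772989-9773521 with a score of 25, lay 4746390 bp past the end, and none was listed on the other side.

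At BHLHE41 (chr12:26272959-26278003 in hg19, minus strand), both factors were listed at 1 site, also past the 3′ end. The BMAL1 peak chr12:26267336-26267732 had its midpoint 5425 bp beyond the gene end and 10469 bp from the gene start. It scored 37 and ranked 491st of 9584, with 94.9% of the list at or below it. The CLOCK peak chr12:26267290-26267822 scored 78.5 and ranked 10th of 269, with 96.7% of the list at or below it. It was the highest-scoring CLOCK peak of the 13 listed on chromosome 12 and carries number 1 there. The BMAL1 peak carries number 16 on that chromosome, and all 16 numbers up to it are listed, so the ranks on this chromosome are not affected by gaps ahead of them. Ranks over the whole lists count listed peaks only. What absent numbers stand for is not stated. Counted as peaks, some on other chromosomes must score above 78.5, since a listed peak after them does. Those would move the CLOCK peak from rank 10 to 71, and all that could score so would move it to 643. For the BMAL1 peak the same limits are 674 and 746, against 491 as listed. At BHLHE40 the CLOCK peak would move from 93 to between 967 and 1380, the gene body BMAL1 peak from 375 to between 521 and 589, and the downstream BMAL1 peak from 4662 to between 6015 and 6087.

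The BHLHE41 pair was the only site of either factor listed in its window. The nearest other BMAL1 midpoint was 130088 bp away and the nearest other CLOCK midpoint 1204735 bp away. The median over each list was 39699 bp for BMAL1 and 1808846 bp for CLOCK. The BMAL1 distance was thus above its median and the CLOCK distance below its own. A greater distance was found for 22.1% of BMAL1 peaks and 58.2% of CLOCK peaks. That CLOCK peak, chr12:25062555-25063087, scored 50, and on the other side the nearest was chr12:56521730-56522262 with 27.5, at 30243993 bp before the gene start. Toward higher coordinates, before the gene start, the next BMAL1 peak was chr12:26397424-26397820 with a score of 16. Toward lower coordinates it was chr12:25709209-25709605 with a score of 11, its midpoint 563552 bp past the gene end. In GRCh38.p14 the protein-coding neighbours of BHLHE41 are RASSF8 and SSPN. A peak near a gene is not shown to act on it, and the assignment of this site to BHLHE41 rests on distance alone.

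**Figure D3:**
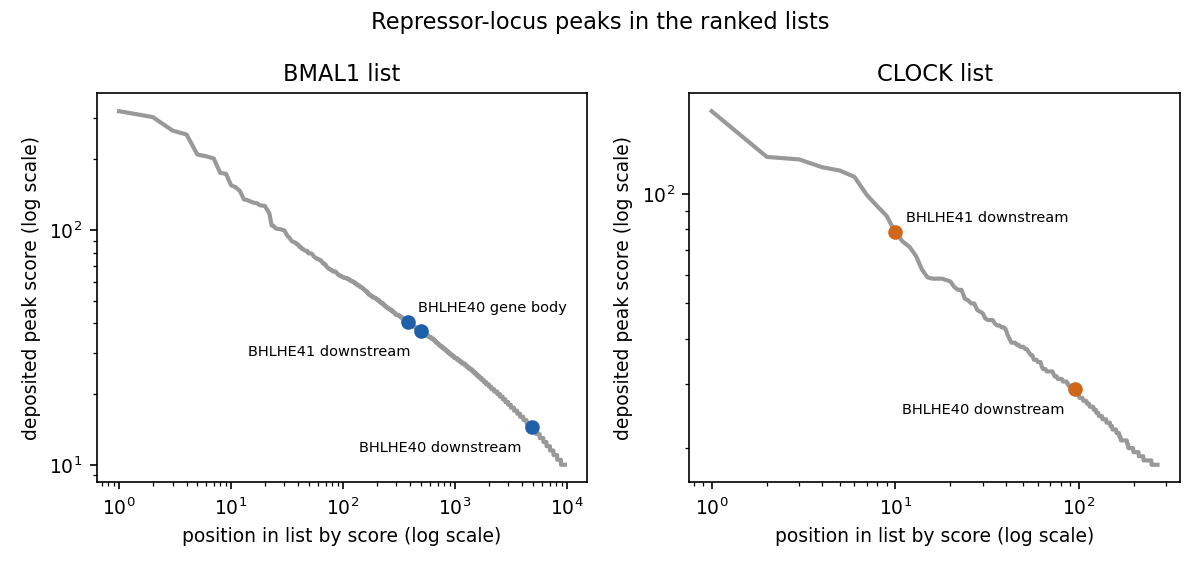
Deposited peak scores of the BMAL1 list (left, 9584 peaks) and the CLOCK list (right, 269 peaks) against position in the list, both axes on a log scale, with the peaks of the DEC loci as points. The BHLHE40 gene body peak (40.5) and the BHLHE41 peak (37) sit close together in the upper part of the BMAL1 list, while the downstream BHLHE40 peak (14.5) lies near its middle; in the CLOCK list BHLHE41 (78.5) stands well above BHLHE40 (29).

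Both CLOCK peaks at the DEC loci overlapped a BMAL1 peak, as did 52.0% of all 269 CLOCK peaks. With only 2 peaks, this share cannot be set apart from the rest of the list. Midpoints of the factors lay 10 bp apart at BHLHE40 and 22 bp apart at BHLHE41. The genes lie on opposite strands, and along transcription the offsets had opposite directions. The BMAL1 midpoint was nearer to the gene start than the CLOCK midpoint at BHLHE40 (7588 against 7598 bp). It was farther from the start at BHLHE41 (10469 against 10447 bp). Over all 140 overlapping pairs the median distance was 50.5 bp, with quartiles of 12 and 122.5 bp. At both genes the whole BMAL1 peak of 397 bp fell inside the CLOCK peak of 533 bp, which was so in 80 of the 140 pairs. The 2 pairs were unlike in strength. Among the 140 pairs, the BHLHE41 pair ranked 10th by CLOCK score and 27th by BMAL1 score, while the BHLHE40 pair ranked 58th and 93rd. The median pair scored 25.5 for CLOCK and 18 for BMAL1, so BHLHE41 exceeded both medians and BHLHE40 the CLOCK median only. In the authors' deposited table of common regions, these sites are chr3:5028487-5028883 with a score of 29 and chr12:26267336-26267732 with 78.5, equal to the bases and the CLOCK scores given above.

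**Figure D4:**
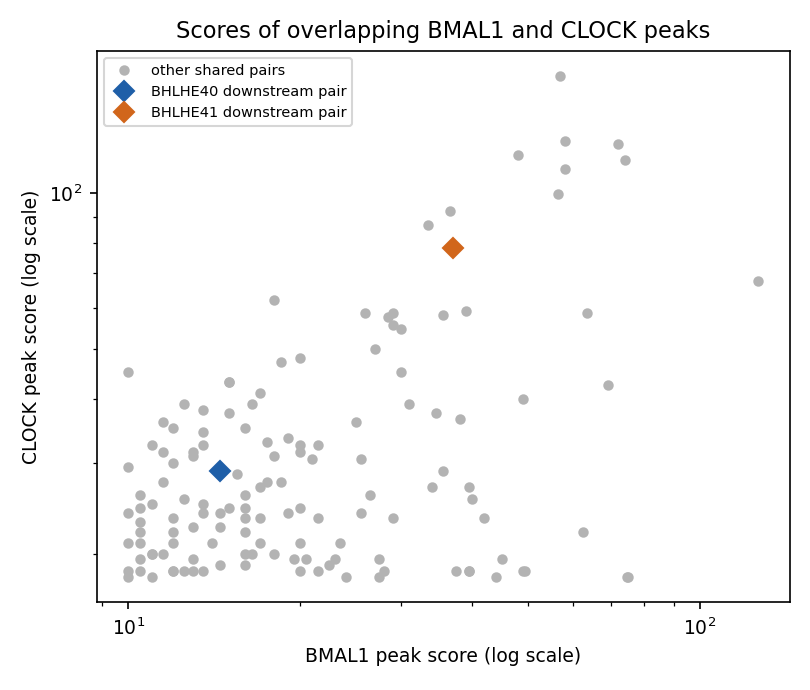
CLOCK score against BMAL1 score of the 140 pairs of overlapping peaks, on log axes, with the pairs at BHLHE41 (37 and 78.5) and BHLHE40 (14.5 and 29) as diamonds. No common scale for the 2 axes is stated. The BHLHE41 pair lies toward the upper right of the cloud and the BHLHE40 pair within its dense lower left.

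At CIART (chr1:150254953-150259505 in hg19, plus strand), 0 BMAL1 and 0 CLOCK peaks were listed. The nearest BMAL1 peak past the gene end was chr1:150295116-150295512, 35809 bp from the end by its midpoint. It scored 10.5, close to the lowest score of the list, with 14.9% of peaks at or below it. On the other side the nearest was chr1:150148788-150149184, a strong peak scoring 49 (rank 216) but 105967 bp before the start. The nearest CLOCK peaks were farther still, chr1:149832585-149833117 at 422102 bp before the start with a score of 32.5 and chr1:151707358-151707890 at 1448119 bp past the end with 19.5. The gene with the most promoter E-boxes of the 3 was thus the one with no listed peak.

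The lists cannot show that CIART was unbound. On chromosome 1, 98.7% of CLOCK numbers (1831 of 1856) and 57.8% of BMAL1 numbers (1623 of 2810) are absent from the lists. On chromosome 12 the shares were 75.9% and 21.1%, and on chromosome 3 they were 61.0% and 15.9%, in the same order. The chromosome of CIART therefore had the largest share of absent numbers of the 3 for both factors. The first listed CLOCK number on chromosome 1 is 19, with a score of 116. Whether absent numbers were peaks is not stated, and their positions are unknown. Shares over a whole chromosome do not describe the part around CIART.

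None of the 3 gene starts had a listed peak close by. Measured to the nearest midpoint, BMAL1 lay 2535 bp from the start of BHLHE40, 10469 bp from that of BHLHE41 and 40361 bp from that of CIART. For CLOCK the distances were 7598, 10447 and 422102 bp. The CACGTG matches shown above, at most 245 bases before a start, were therefore not covered by a listed peak, provided that the RefSeq starts lie near the hg19 gene ends used here. The sequence under the peaks themselves was not examined, since no hg19 genome was used here.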

How the data were processed

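Per the labels' protocols, crosslinked chromatin was sheared by sonication, incubated with antibody overnight and sequenced from both ends. Tools named in the submitters' processing notes, with no role given, are HOMER 4.7.2, Bowtie 0.12.7, Picard and SAMtools 1.2, with build hg19. The 2 lists used, each from 1 library, name HOMER as peak caller. The peak score was deposited without unit, normalization or threshold, with control and filters not given in the sources used here. Depth is unknown.

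Peaks were assigned by midpoint to gene bodies extended by 10 kb. Overlap meant at least 1 shared bp. Ranks give tied peaks the best rank. Tiles of 25 kb ran from each chromosome's start to its last peak. Strand, promoters and neighbouring genes came from RefSeq GRCh38.p14, by symbol or, for ARNTL, synonym. All peaks in the windows and the nearest peak of each factor outside, on each side, are named. The loci and gene lists were chosen with earlier results of these data known. As a check of the code only, overlap, window and motif counts were run on simulated data, where 50 planted overlaps were recovered in each of 5 draws. All other simulated peaks lay far from any BMAL1 peak, so near misses in overlap were not checked. Calculations ran in Python 3.11.15 with pandas 2.3.3, numpy 2.4.6, matplotlib 3.10.9 and scipy 1.17.1.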

Additional observations from a re-analysis of the deposited data

How the results depend on the processing

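Of 27 alternatives to 9 results, 13 left a count within 1.5 times and 14 moved a value, mostly by construction. Extending the windows to 50 kb gave 6 BMAL1 peaks, among them the CIART neighbour, and 2 CLOCK peaks. The gene bodies alone held 1 BMAL1 and 0 CLOCK peaks, and windows of 5 kb lost the BHLHE41 site, leaving 1 CLOCK peak. All 3 other definitions of overlap left both CLOCK peaks shared. Ranked on its own chromosome, the strongest BMAL1 peak stood at percentile 98.0 for BHLHE40 and 96.5 for BHLHE41, and without chromosome 1 at 96.7 and 95.6. The CLOCK peaks stood at 93.8 and 100 on their chromosomes, and at 59.3 and 93.6 among shared CLOCK peaks. The value of 93.8 rests on the 16 listed CLOCK peaks of chromosome 3 and leaves out the 7 absent numbers ahead of the BHLHE40 peak. Tiles of 10 kb and 50 kb held a BMAL1 peak in 2.93% and 12.2%. No percentile exists for CIART, which had no peak. No paired analysis was possible, because each factor had 1 peak list. Titles number replicates only among NOMO-1 libraries, which were not analysed here.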
